A study of Mus musculus with 2 samples.

Results

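A small group of cells in sorted adrenal endothelium carried transcripts of macrophages. They were selected on measured transcripts among single cells of the mouse adrenal gland: a cell was a member when at least 3 of the 7 myeloid genes Lyz2, C1qa, C1qb, C1qc, Tyrobp, Ctss and Csf1r were detected and fewer than 2 of the 4 B-cell genes Cd79a, Cd79b, Ighm and Igkc. Cells with 500 or more UMIs, 300 or more genes and up to 15% mitochondrial UMIs were kept. The rule took 122 of 9927 kept cells, 69 of 3793 in the VEGF/LysM library and 53 of 6134 in the wild-type (WT) library. The study profiled adrenal endothelium by 10x Genomics single-cell RNA sequencing, in which a unique molecular identifier (UMI) counts each captured transcript once. There was 1 library per genotype, both from female mice aged 12 weeks, and the sources used here do not give the number of mice behind each. Minced glands were digested in the cold with a bacterial protease, and viable cells positive for CD31 and negative for CD45 were sorted. The label VEGF/LysM joins a vascular growth factor with lysozyme M, the protein of Lyz2, whose promoter is widely used to drive Cre recombinase in monocytes, macrophages and neutrophils. The labels do not state the alleles, and name no allele that both genotypes share.

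Macrophages are tissue phagocytes that depend on the receptor Csf1r, make the complement component C1q and sample their surroundings through lysosomes. Many of them present peptides on major histocompatibility complex (MHC) class II molecules, whose chains are assembled with the invariant chain Cd74 and loaded with the help of H2-DM. In many tissues macrophages lie close to vessels and can release factors that act on endothelium. All leukocytes carry CD45, the product of Ptprc, so the gate was set against the cells described here. CD31, the product of Pecam1, is found on endothelium and, at lower levels, on monocytes and some macrophages.

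MHC class II genes stand at the centre of what follows, and upstream sequences are shown to place a known class II promoter motif in them. RefSeq windows (GRCm38.p6) were matched by symbol for 4 class II genes, H2-Aa, H2-Eb1, H2-DMb1 and H2-DMa, and the 250 bases before the start are printed for 3 of them. H2-Ab1 and Ciita are named only. Capitals mark GATTGG or, on the other strand, CCAATC, the core of the Y box of class II promoters. The window of H2-Aa, which encodes an alpha chain, is chr17:34287824-34288073 on the minus strand. That of H2-Eb1, a beta chain gene, is chr17:34305617-34305866 on the plus strand, and that of H2-DMb1, a chain of the peptide-loading protein, is chr17:34152941-34153190 on the plus strand.
H2-Aa: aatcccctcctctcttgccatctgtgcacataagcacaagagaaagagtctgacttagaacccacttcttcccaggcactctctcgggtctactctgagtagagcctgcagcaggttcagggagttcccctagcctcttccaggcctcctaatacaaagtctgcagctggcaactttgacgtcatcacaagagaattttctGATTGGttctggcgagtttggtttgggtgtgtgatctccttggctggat
H2-Eb1: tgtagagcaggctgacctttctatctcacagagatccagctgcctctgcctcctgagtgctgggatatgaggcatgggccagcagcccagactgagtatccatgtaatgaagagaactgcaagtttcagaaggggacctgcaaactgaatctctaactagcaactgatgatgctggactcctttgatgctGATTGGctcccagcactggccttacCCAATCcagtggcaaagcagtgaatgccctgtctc
H2-DMb1: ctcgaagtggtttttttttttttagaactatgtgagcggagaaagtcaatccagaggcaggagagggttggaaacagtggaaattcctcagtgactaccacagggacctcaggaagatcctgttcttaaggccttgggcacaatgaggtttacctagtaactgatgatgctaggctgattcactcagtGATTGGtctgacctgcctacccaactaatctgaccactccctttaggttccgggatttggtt
The first match began 49 bases before the start in H2-Aa (position -49), at -60 in H2-Eb1, which held 2 matches, and at -62 in H2-DMb1. H2-DMa had 2 windows in the table, with 0 matches before the start of the matching transcript and 1 before the other start. Over all 32851 windows of this length in the table, 14.6% held a match. A match of 6 letters describes the sequence and does not show a site in use.

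Members had a median of 4083 UMIs (581 to 25424) in VEGF/LysM and 3176 (739 to 11910) in WT. The other kept cells of the same libraries had medians of 2328 and 1185 UMIs. Members made up 1.82% of kept cells in VEGF/LysM (exact binomial 95% interval 1.42 to 2.30) and 0.864% in WT (0.648 to 1.13). The VEGF/LysM share was 2.11 times the WT share. With 1 library per genotype there is no replicate check, and all intervals cover counting error only. The kept cells of VEGF/LysM were also deeper (median 2343 UMIs, against 1190 in WT), and more UMIs give more chances to detect 3 genes. When every cell was thinned to 500 UMIs before the rule, members were 29 cells (0.765%) in VEGF/LysM and 25 (0.408%) in WT. Of 10 barcodes shared by the libraries, none was a member.

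The 7 rule genes chose the cells, so their values describe the choice. All 7 were detected in 22 members of VEGF/LysM and 24 of WT, with medians of 104 and 47 UMIs over the 7 genes. Members just inside the limit, with 3 genes, numbered 9 in VEGF/LysM and 5 in WT and had medians of 6 and 9 such UMIs. Cells just outside, with 2 genes, numbered 12 and 15, with medians of 2 and 3. Cells with exactly 1 gene were more numerous, 101 in VEGF/LysM and 89 in WT.

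**Figure D1:**
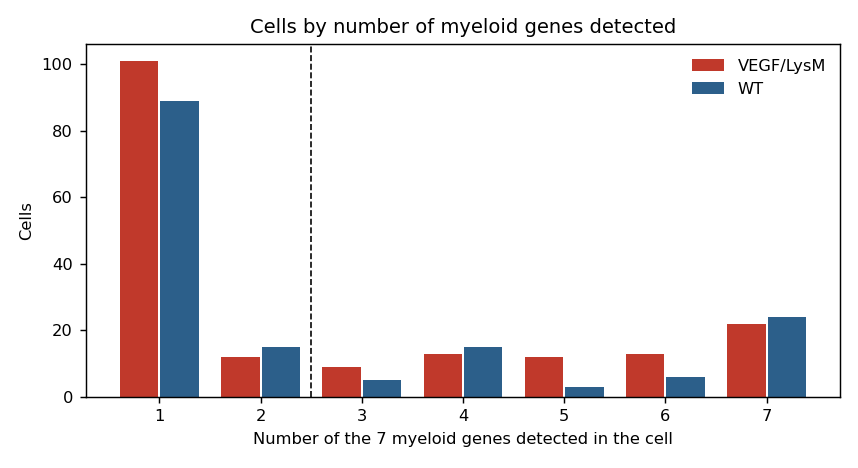
Number of kept cells (vertical axis) by how many of the 7 myeloid genes were detected (horizontal axis) in VEGF/LysM (red) and WT (blue); cells with 0 genes are not drawn, and members lie right of the dashed line. The counts are 9, 13, 12, 13 and 22 cells for 3 to 7 genes in VEGF/LysM and 5, 15, 3, 6 and 24 in WT.

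Genes outside the rule were those of myeloid cells. Pooled over members and scaled to counts per 1000000 UMIs of the same cells (CPM), Cybb, the catalytic subunit of the phagocyte oxidase, stood at 740 CPM in VEGF/LysM members and 821 in WT members, against 2.53 and 1.80 in the other kept cells of those libraries. Ms4a7, a membrane protein of macrophages, had 243 and 209 CPM in members and 0.606 and 0.120 in other cells. Mpeg1, a pore-forming protein of phagocytes, had 327 and 418 CPM in members and 1.21 and 0.600 in other cells. Lair1, an inhibitory collagen receptor, and Slc11a1, a metal transporter of phagosomes, were at 175 and 125 CPM in VEGF/LysM members and at 189 CPM each in WT members. Acp5, an acid phosphatase of macrophages and osteoclasts, had 178 CPM in VEGF/LysM members and 109 in WT members. The other genes that set members apart most from the rest were Mmp12, a macrophage elastase, Chil3, a chitinase-like protein, Rab7b, a GTPase of lysosomal traffic, Tifab, Clec4a3 and Adgre4. All 12 were at least 263 times as high in members as in the other cells of the same library, where a level under 3 UMIs was set to 3. Most of Chil3 in VEGF/LysM, 77.8% of its UMIs, came from 1 cell. Genes of one cell move with the rule genes of that cell, so these ratios describe the chosen cells and test nothing.

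Ptprc, the gene of the protein gated against, was present. It was detected in 36 of 69 members in VEGF/LysM and 32 of 53 in WT, and its level was 404 CPM (345 to 470) and 413 CPM (329 to 512). The other kept cells held 9.70 and 10.2 CPM, and 0.591% of them in VEGF/LysM and 0.444% in WT had a Ptprc UMI. Thinned to 500 UMIs, Ptprc was seen in 14.5% of members in VEGF/LysM and 18.9% in WT, against 0.188% and 0.230% of other cells. The 8 leukocyte genes listed, among them Laptm5 of lysosomes (810 and 717 CPM) and Spi1, the myeloid transcription factor PU.1 (260 and 234 CPM), summed to 3673 CPM in VEGF/LysM members and 3160 in WT members.

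Vegfa, the gene of VEGF-A, had 0 UMIs in the members of both libraries. A count of 0 allows up to 7.21 CPM in VEGF/LysM and 14.9 CPM in WT (3 counts over the members of each library), and shares of cells with a UMI of up to 4.35% and 5.66%. Other kept cells were at 9.09 CPM in VEGF/LysM and 8.28 CPM in WT. At this depth Vegfa was not detectable in members of either genotype, so its level gives no check of the label. Of the other growth factors listed, Tgfb1, a regulator of matrix and immunity, had 245 CPM in VEGF/LysM members and 199 in WT members. Other kept cells held Tgfb1 at a like level, 197 CPM in VEGF/LysM and 221 in WT. Pdgfb, which recruits pericytes, had 147 and 224 CPM in members and 262 and 288 in other cells.

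Most members also carried endothelial RNA. Kdr and Flt1, receptors for VEGF, and Plvap, of the fenestral diaphragm, were summed per 10000 UMIs of each cell, and members were split at 10 and 30. The low class had 19 members in VEGF/LysM (27.5%, interval 17.5 to 39.6) and 13 in WT (24.5%, 13.8 to 38.3). The middle class had 12 and 15 members. The high class had 38 in VEGF/LysM (55.1%, 42.6 to 67.1) and 25 in WT (47.2%, 33.3 to 61.4). The median of the 3 genes was 0 in the low class of both libraries and 51.6 and 55.6 per 10000 UMIs in the high class, against 59.4 and 62.8 in the other kept cells.

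Endothelial genes that did not set the classes followed them. Pecam1 was at 26.9 CPM in the low class of VEGF/LysM and 148 CPM in that of WT, at 448 and 607 CPM in the middle class, at 907 and 1064 CPM in the high class and at 1212 and 1300 CPM in other cells. Over 18 endothelial genes, the median level in the high class was 76.2% of that in other cells in VEGF/LysM and 74.1% in WT. The same medians were 34.3% and 42.7% in the middle class and 4.73% and 1.84% in the low class. High-class members had medians of 4356 UMIs in VEGF/LysM and 3176 in WT, whereas other kept cells with as much endothelial RNA had 2414 and 1207. Greater depth was not particular to the high class. The medians were 5604 and 4195 UMIs in the middle class and 3301 and 2577 in the low class. Scrublet, which scores cells for likeness to simulated pairs of cells, placed 2 members in VEGF/LysM and 3 in WT among the highest scores. These were 2.90% and 5.66% of members, near the 3.06% and 5.13% of other kept cells. All 5 were of the high class, where they made up 5.26% and 12.0%. Among other kept cells with as much endothelial RNA the shares were 3.48% and 5.59%. The part of cell pairs in 1 droplet in these values was not tested.

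The low class had the highest myeloid levels. Its 19 members in VEGF/LysM and 13 in WT had Ptprc at 927 CPM (721 to 1173) and 740 CPM (479 to 1092), and Ptprc was detected in 15 and 11 of them. In the high class Ptprc was at 323 CPM in VEGF/LysM and 188 CPM in WT, or 271 and 159 CPM without the top cell of each library. Most high-class members of either library had no Ptprc UMI. The rule genes, which the split did not use, summed to 20075 and 16625 CPM in the low class, 11113 and 9616 in the middle class and 5057 and 6574 in the high class. The ratios among C1qa, C1qb and C1qc, the chains of C1q, changed little with class. C1qa made up 39.0% of C1q UMIs in the low class and 34.0% in the high class of VEGF/LysM, and 35.2% and 37.3% in WT.

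MHC class II transcripts were abundant in these cells. Cd74 (ENSMUSG00000024610) stood at 5117 CPM (4902 to 5340) in VEGF/LysM members and 3743 CPM (3480 to 4020) in WT members. It was detected in 62 of 69 and 45 of 53 members, against 8.30% and 1.48% of the other kept cells. H2-Eb1 (ENSMUSG00000060586) had 2464 and 1896 CPM, H2-Aa (ENSMUSG00000036594) 1875 and 1339 CPM, and H2-Ab1 (ENSMUSG00000073421), the other beta chain gene, 1731 and 1155 CPM. The pooled level of each of these 4 was higher in VEGF/LysM members, with log2 ratios of 0.38 to 0.58 whose counting intervals lay above 0. For the 4 genes together, the median member had 43.3 UMIs per 10000 in VEGF/LysM and 45.4 in WT. Among members with C1q transcripts the medians were 48.5 and 90.8. Both orders were opposite to that of the pooled levels. The genes of peptide loading and control were scarcer. H2-DMa had 135 CPM in VEGF/LysM members and 219 in WT members, H2-DMb1 161 and 144, and Ciita, the master regulator of class II transcription, 96.1 and 64.7.

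The pooled class II level was highest in the low class, which held 2206 of 4822 class II UMIs in VEGF/LysM and 630 of 1723 in WT. The 11 listed class II genes summed to 29643 CPM in VEGF/LysM and 18636 CPM in WT in the low class, to 16484 and 8353 CPM in the middle class, and to 5038 and 5500 CPM in the high class. Other kept cells had 214 CPM in VEGF/LysM and 80.6 CPM in WT. Cd74 alone was at 12550 CPM (11758 to 13382) in the low class of VEGF/LysM and 8194 CPM (7257 to 9218) in that of WT. In the high class it was at 2320 CPM (2139 to 2511) and 2392 CPM (2107 to 2705). In the low and middle classes the summed level was higher in VEGF/LysM, and in the high class it was not.

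Single cells differed widely. The 4 main class II genes together had a median of 154 UMIs per 10000 (0 to 586) in the low class of VEGF/LysM and 47.9 (3.88 to 465) in that of WT. In the middle class the medians were 91.0 and 54.1, and in the high class 34.9 and 36.2, so that in WT the median cell was not highest in the low class. At least 2 of the 4 genes were detected in 58 of 69 members in VEGF/LysM (84.1%, interval 73.3 to 91.8) and in 35 of 53 in WT (66.0%, 51.7 to 78.5). All 4 were detected in 43 and 27 members. In other kept cells at least 2 were detected in 6.53% in VEGF/LysM and 0.724% in WT. Thinned to 500 UMIs, Cd74 was seen in 52.2% of members in VEGF/LysM and 64.2% in WT, an order opposite to that of the pooled CPM, and in 2.69% and 0.658% of other cells. The other 3 genes kept the order of the pooled CPM, with H2-Aa in 40.6% and 34.0% of members, H2-Ab1 in 43.5% and 35.8% and H2-Eb1 in 44.9% and 39.6%.

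**Figure D2:**
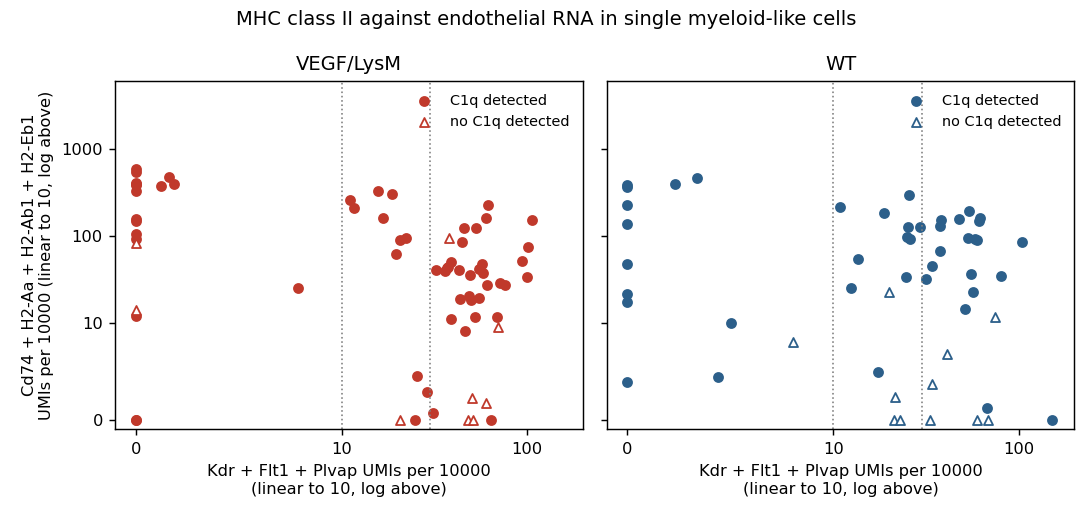
Each point is 1 member: UMIs of Kdr, Flt1 and Plvap per 10000 (horizontal axis) against UMIs of Cd74, H2-Aa, H2-Ab1 and H2-Eb1 per 10000 (vertical axis), both axes linear up to 10 and logarithmic above, with VEGF/LysM left and WT right. Dotted lines at 10 and 30 divide the low, middle and high classes; members without C1q transcripts (open triangles) have class II medians of 2.25 in VEGF/LysM and 2.38 in WT.

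Within the UMIs of the 4 main class II genes, the shares of Cd74 and H2-Ab1 varied little between classes of members, and those of H2-Aa and H2-Eb1 varied more in WT. Cd74 made up 43.8%, 46.8% and 47.8% of the UMIs of the 4 genes in the low, middle and high class of VEGF/LysM, and 46.3%, 45.9% and 45.8% in WT. H2-Ab1 made up 13.5% to 17.2% in the classes of VEGF/LysM and 13.3% to 15.6% in those of WT. H2-Eb1 made up 22.8%, 20.9% and 21.9% in the low, middle and high class of VEGF/LysM, and 20.6%, 27.7% and 22.5% in WT. H2-Aa made up 17.7%, 15.2% and 16.8% in VEGF/LysM, and 17.6%, 13.1% and 18.2% in WT. In other kept cells H2-Ab1 made up 24.9% in VEGF/LysM and 29.3% in WT.

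MHC class I genes, which present peptides of a cell's own proteins in nearly all cells, were at the level of the surrounding endothelium. B2m, the light chain, had 2521 CPM in VEGF/LysM members and 2001 in WT members, against 2213 and 1838 CPM in other kept cells. H2-D1 was at 1635 and 1329 CPM and H2-K1 at 1505 and 1065 CPM in members. The 19 class I genes summed to 8748 and 5828 CPM in the low class and to 7847 and 7384 CPM in the high class. Cd86, the costimulatory ligand of CD28, had 106 CPM in VEGF/LysM members and 144 in WT members. Cd86 was at 309 and 355 CPM in the low class, 53.1 and 56.5 CPM in the high class, and 0.808 and 0.480 CPM in other cells. Cd80 had 7 UMIs in VEGF/LysM members and 0 in WT members, and Il12b had 0 in both.

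The macrophage genes outside the rule were at like levels in both libraries. Cx3cr1, the fractalkine receptor, had 570 CPM in VEGF/LysM members and 667 in WT members. Maf, a transcription factor of macrophages, had 471 CPM in VEGF/LysM members and 498 in WT members, though it was also at 344 and 448 CPM in other cells. Lgmn, a lysosomal protease, had 466 and 448 CPM. Adgre1, which encodes F4/80, had 209 and 159 CPM, Cd68 149 and 124, and Mertk, a receptor for dying cells, 284 and 348. Fcgr1, a high-affinity Fc receptor, had 86.5 and 79.6 CPM in members and 0 UMIs in the other kept cells of either library. The genes listed for resident macrophages were mixed. Lyve1 had 0 and 1 UMIs, Timd4 1 and 0, Cd163 5 and 0, and Folr2 0 in both. F13a1 had 130 and 114 CPM in members, against 1.31 and 0.600 in other cells. Wfdc17 had 195 and 164 CPM in members, against 1.52 and 1.20 in other cells. In VEGF/LysM 1 cell held 35.2% of the F13a1 UMIs, and 1 cell held 39.5% of those of Wfdc17. Mrc1, the mannose receptor, had 173 and 184 CPM in members and 79.3 and 117 CPM in other cells.

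The 25 macrophage genes summed to 12940 CPM in VEGF/LysM and 11034 CPM in WT in the low class, 8798 and 7992 in the middle class, 3755 and 4530 in the high class, and 991 and 1188 in other cells. Among genes with at least 20 UMIs in the members of each library, 13.4% of all 2382 were at least 2-fold higher in the low than in the high class in VEGF/LysM, and 17.2% in WT. Of the class II genes 6 of 6 were so in both libraries, with median log2 ratios of 2.57 and 1.79. Of the macrophage genes 20 of 21 were so in VEGF/LysM (median 1.54) and 12 of 21 in WT (median 1.46). Of the class I genes 1 of 14 and 0 of 14 were, with medians of -0.02 and -0.33. The medians over all 2382 genes were -0.28 and -0.12. Genes at least 2-fold lower in the low class were 29.7% in VEGF/LysM and 30.0% in WT, among them 17 of 17 endothelial genes in both. The classes were cut from the same counts, so these ratios describe the split.

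**Figure D3:**
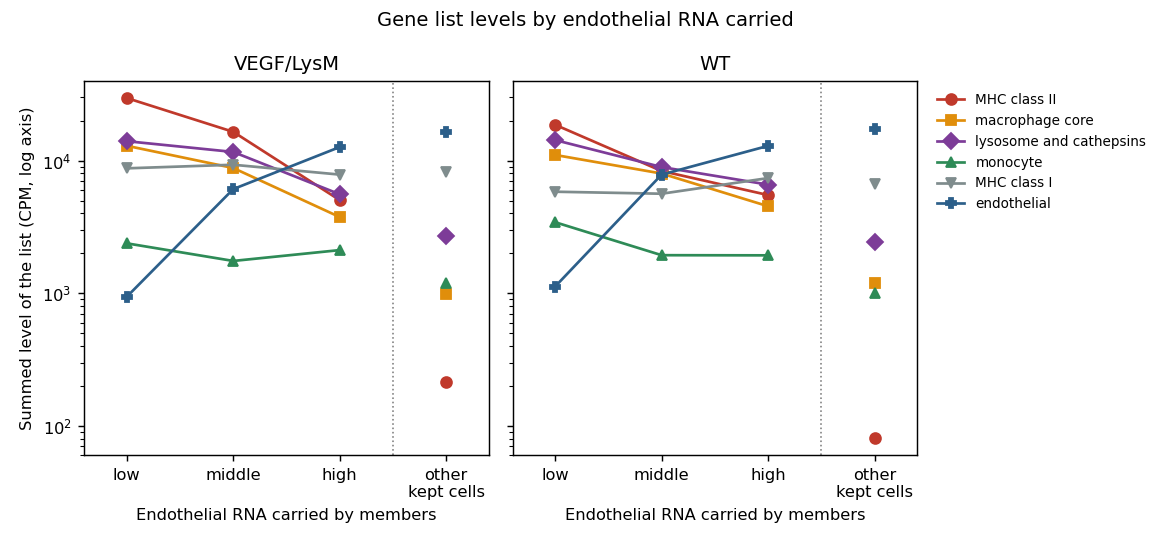
Summed level of 6 gene lists in CPM (logarithmic vertical axis) in members with low, middle and high endothelial RNA and in the other kept cells (horizontal axis), with VEGF/LysM left and WT right. MHC class II runs from 29643 CPM in the low class to 5038 in the high class of VEGF/LysM and from 18636 to 5500 in WT, while MHC class I stays between 5629 and 9310 CPM in all classes.

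The genes that stood out most in the low class, in both libraries, were of several kinds. Blnk, a signalling adaptor, had 215 CPM in the low class of VEGF/LysM and 385 in that of WT, and 7.59 and 28.3 in the high class. C5ar1, the receptor of complement C5a, had 349 and 414 CPM in the low class, and 15.2 and 84.8 in the high class. Tgfbi, a secreted matrix protein, had 658 and 887 CPM in the low class, and 94.9 and 151 in the high class. Cd63, a late-endosome protein, had 390 and 473 CPM in the low class, and 56.9 and 47.1 in the high class. The others were Myof, Col14a1, a collagen chain, Cd86, Rab7b, H2-DMa and Lilr4b, and all 10 genes were at least 4.89 times as high in the low as in the high class in both libraries. Col14a1 rested on 13 and 17 UMIs in the low class, and on 7 and 1 in the high class, and 1 cell held 70.6% of the low-class UMIs in WT. For Rab7b 1 cell held 55.6% of the low-class UMIs in WT.

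Lysosomal and lipid genes were present throughout. Apoe, the lipid carrier, was higher than any other listed gene in both libraries, at 9970 CPM in VEGF/LysM members and 7475 in WT members, against 374 and 227 CPM in other cells. Its level was 23596 and 19701 CPM in the low class, and 5015 and 3381 in the high class. Psap, the precursor of the saposins, had 1882 and 2309 CPM, and the cathepsins Ctsb and Ctsc had 856 and 781 CPM in VEGF/LysM members and 956 and 697 in WT members. Ftl1 and Fth1, the ferritin chains, had 3704 and 4783 CPM in VEGF/LysM members, and 3205 and 3549 in WT members, and 1 cell held 27.8% of the VEGF/LysM Fth1 UMIs. Spp1 and Gpnmb, genes of lipid-laden macrophages, had 0 UMIs in members of both libraries. Fabp4 and Cd36, fatty acid handling genes that capillary endothelium also expresses, at 2916 and 1031 CPM in VEGF/LysM members and 1921 and 1150 in WT members, were higher in other cells of VEGF/LysM (7385 and 2065 CPM) and of WT (3836 and 1290 CPM).

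Receptors for antibody and complement were also present. Levels are set beside all 2852 genes with at least 50 UMIs over members, of which 1.79% were at least 2-fold higher in VEGF/LysM, 0.877% at least 2-fold lower and 48.0% above 0 on the log2 scale. Fcer1g, the signalling chain of Fc receptors, had 964 CPM in VEGF/LysM members and 652 in WT members, Fcgr3 166 and 114, and Fcgr4 147 and 114. Of 6 measured Fc receptor genes 0 passed 2-fold between the libraries and 6 were above 0, with a median log2 ratio of 0.45. C3ar1, the receptor of complement C3a, had 197 and 174 CPM. Axl, a receptor for dying cells, had 185 CPM in VEGF/LysM members and 319 in WT members. Of 15 measured lysosomal genes 8 were above 0, with a median of 0.05, and 1 (Ctsl) passed 2-fold. Between low and high class, 8 of 13 lysosomal genes in VEGF/LysM and 9 of 13 in WT were at least 2-fold higher in the low class.

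Interferon-induced genes were close to the level of the surrounding cells. Their 13 listed genes summed to 3598 CPM in VEGF/LysM members and 3150 in WT members, against 3546 and 3203 CPM in other kept cells. Ifi27l2a had 1451 and 740 CPM in the low class and 107 and 73.8 CPM in other cells. Rsad2, an antiviral enzyme, ran the other way, with 40.3 and 0 CPM in the low class and 1160 and 1245 CPM in other cells. Of 10 measured genes 0 passed 2-fold between the libraries and 8 were above 0, with a median of 0.10.

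Members without C1q transcripts carried monocyte genes. The rule could be met without C1q, and 9 members in VEGF/LysM and 11 in WT had none of C1qa, C1qb and C1qc. The 15 monocyte genes summed to 4306 CPM in VEGF/LysM and 4374 CPM in WT in members without C1q, and to 1551 and 1353 CPM in members with it. This division was made after the values were seen and uses rule genes, so it describes the cells only. Leaving out the top cell of each library gave 3343 and 4199 CPM without C1q. The sums include Ifitm3 (1171 and 1193 CPM without C1q) and Gngt2 (695 and 506). Other kept cells also held these 2 genes, Ifitm3 at 927 and 703 CPM and Gngt2 at 246 and 272. Plac8, a monocyte gene, had 646 CPM in members without C1q in VEGF/LysM and 868 in WT, and 18.0 and 13.7 CPM in members with C1q. Ace, which patrolling monocytes express, had 268 and 253 CPM without C1q, and 5 and 0 UMIs in all members with it. Ccr2, the receptor that brings inflammatory monocytes into tissue, had 220 and 434 CPM without C1q, and 38.9 and 82.4 with it. In VEGF/LysM 17 of its 18 UMIs without C1q came from 1 cell, and without that cell the level was 13.7 CPM, below that of members with C1q. Ifitm6 had 171 and 145 CPM without C1q, and 8.98 and 0 with it, and 1 cell held 62.5% of the WT UMIs. Nr4a1, a nuclear receptor required by patrolling monocytes and also an immediate-early gene, had 464 and 289 CPM without C1q, and 62.9 and 82.4 with it.

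The same cells had little class II. The class II genes summed to 1281 CPM in VEGF/LysM and 416 CPM in WT in members without C1q, and to 14121 and 11676 CPM in members with C1q. In VEGF/LysM 1 cell held 68 of the 105 UMIs without C1q, and leaving out the top cell of each library gave 494 and 253 CPM. Apoe had 1086 and 2006 CPM without C1q, and 12151 and 9554 with it, with 50.5% of the WT UMIs without C1q in 1 cell. Ptprc was present in both kinds, at 549 and 470 CPM without C1q and 368 and 391 with it, and Cybb at 866 and 886 without C1q and 709 and 797 with it. Lyz2, a rule gene, had 3074 and 7284 CPM without C1q, and 2230 and 2761 with it. Endothelial RNA was carried by both kinds, with medians of 47.9 and 33.1 per 10000 UMIs without C1q, and 34.1 and 25.7 with it.

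**Figure D4:**
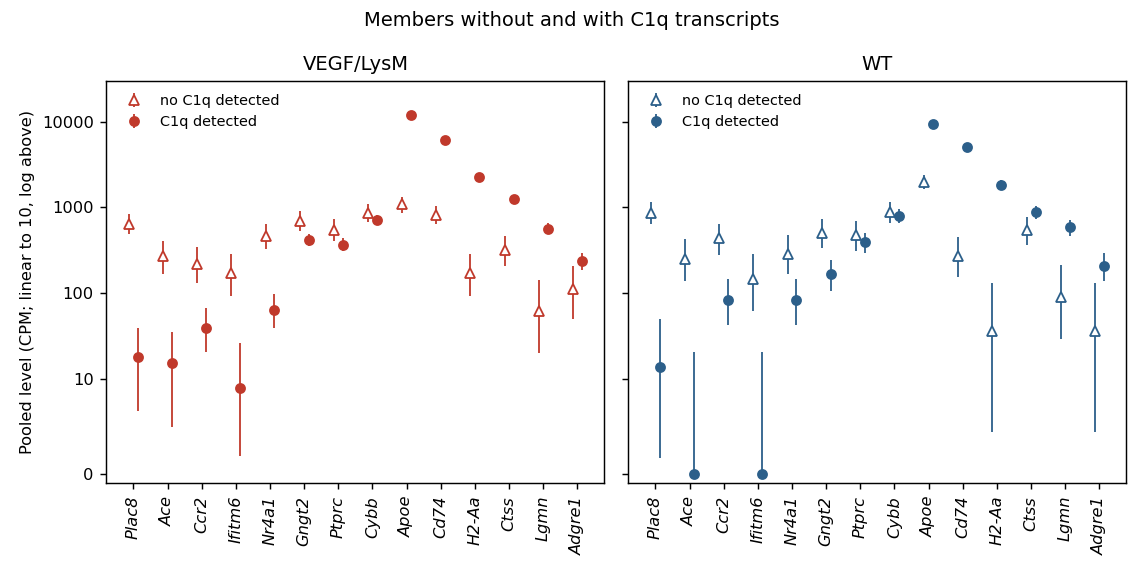
Pooled level of 14 genes, chosen after their values were seen, in CPM (vertical axis, linear to 10 and logarithmic above) in members without C1q transcripts (open triangles) and with them (filled circles), with VEGF/LysM left and WT right; bars are exact Poisson 95% intervals. Plac8 stands at 646 and 868 CPM without C1q and at 18.0 and 13.7 with it, while Cd74 stands at 817 (67.2% from 1 cell) and 271 without C1q and at 6173 and 5062 with it.

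Between the libraries few genes of the members differed. Of 2852 genes with at least 50 UMIs over the members of both libraries, 51 (1.79%) were at least 2-fold higher in VEGF/LysM and 25 (0.877%) at least 2-fold lower, and the median log2 ratio over all 2852 was -0.02. That balance depended on the weighting of cells, since higher and lower genes numbered 75 and 103 by the mean of cells and 66 and 68 with an equal mix of the classes. Among the listed genes, 0 of 7 class II genes, 0 of 16 class I genes and 0 of 22 macrophage genes passed 2-fold in either direction. Their median log2 ratios were 0.45, 0.29 and -0.07, and 6 of 7, 15 of 16 and 10 of 22 were above 0. The median of the class I genes was matched outside the members, since the 19 genes also summed to 8140 CPM in other kept cells of VEGF/LysM and 6662 in those of WT. Class II genes were also higher in VEGF/LysM outside the members. In other kept cells Cd74 had 77.8 CPM in VEGF/LysM and 22.2 in WT, and H2-Eb1 had 34.9 and 11.9. H2-Aa had 28.5 and 11.3 CPM there, and H2-Ab1 46.7 and 18.8. For the summed class II level of members the log2 ratio was 0.43, and it was 0.67 in the low class. For the macrophage genes it was -0.07, with 0.23 in the low class.

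Of the genes named for a high ratio, the first 4 rested mostly on 1 cell each. Hba-a2, Hba-a1 and Hbb-bs, the haemoglobin chains, had log2 ratios of 3.26, 2.78 and 2.50, and 92.9%, 94.5% and 91.4% of their UMIs in VEGF/LysM came from 1 cell. Without the top cell of each gene in each library the ratios were 0.13, -0.29 and -0.44. AI506816 had 60.9% of its VEGF/LysM UMIs in 1 cell. Cmss1 was at 1512 CPM in VEGF/LysM members and 398 in WT members (log2 1.92, interval 1.59 to 2.28), and at 3001 and 963 CPM in other kept cells of the same libraries. It was detected in all 69 VEGF/LysM members and in 42 WT members. Sh3rf1 and Pnn had 45 and 49 UMIs in 24 and 22 VEGF/LysM members, and 5 and 6 UMIs in 5 WT members each. Sh3rf1 was at 108 CPM in VEGF/LysM members and 24.9 in WT members, against 149 CPM in the other kept cells of each library. Pnn was at 118 and 29.9 CPM in members, against 105 and 95.6 in other kept cells.

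Pf4, a chemokine that macrophages and platelets make, was the only one of 8 measured resident macrophage genes past 2-fold. It had 132 CPM in 18 VEGF/LysM members and 39.8 CPM in 5 WT members (log2 1.73, 0.65 to 3.01). In the low class Pf4 was at 349 CPM in VEGF/LysM, or 167 CPM without the cell that held 53.8% of its UMIs, and had 0 UMIs in WT. Ctsl, a cathepsin, had 159 CPM in VEGF/LysM members and 74.7 in WT members, but also 193 and 143 CPM in other cells. Blvrb, of haem breakdown, had 240 and 114 CPM, with 26.0% of the VEGF/LysM UMIs in 1 cell, and Hspe1, a chaperone, 190 and 94.6 CPM.

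Of 6 measured chemokine genes, 1 was at least 2-fold higher in VEGF/LysM (Pf4) and 1 at least 2-fold lower (Ccl6), with a median log2 ratio of -0.62. Of 3 measured cytokine and NF-kB genes, 1 was at least 2-fold lower, with a median of -0.60. Ccl6, a chemokine of myeloid cells, had 74.5 CPM in VEGF/LysM members and 279 in WT members (log2 -1.90, -2.59 to -1.25). Its levels were 76.7 and 246 CPM in the middle class and 64.5 and 170 CPM in the high class. In the low class they were 107 and 680 CPM, but 22 of the 23 WT UMIs there came from 1 cell, and without the top cell of each library the low-class levels were 94.7 and 34.6 CPM, in the opposite order. Il1b, the gene of interleukin-1 beta, had 57.7 and 149 CPM (log2 -1.37, -2.21 to -0.55) and was detected in 9 members of each library. Ccr2 had 74.5 and 179 CPM (log2 -1.27), with 54.8% of the VEGF/LysM UMIs in 1 cell. Cxcl2, a neutrophil chemokine under the 50-UMI minimum and named after its values were seen, had 10 UMIs in VEGF/LysM and 30 in WT. Fos and Zfp36, immediate-early genes, had 519 and 305 CPM in VEGF/LysM members, and 821 and 493 in WT members. Of 11 measured immediate-early genes 0 passed 2-fold, with a median of -0.30, and the 12 listed summed to 3059 CPM in other kept cells of VEGF/LysM and 3701 in those of WT.

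Other genes lower in VEGF/LysM members were Lrp1, an endocytic receptor (91.3 and 244 CPM, log2 -1.42), Mctp1 (76.9 and 239 CPM), Mylip, which degrades the LDL receptor (139 and 348 CPM), and Ppp2r1a, a phosphatase scaffold (60.1 and 154 CPM). Retnla, a resistin-like secreted protein of alternatively activated macrophages, had 0 UMIs in VEGF/LysM and 66 in WT, all in 1 cell. Fn1, fibronectin, had 14 UMIs in 1 VEGF/LysM member and 66 in 6 WT members, with 66.7% of the WT UMIs in 1 cell. Ccl24 had 0 UMIs in VEGF/LysM and 22 in WT, again all in 1 cell. Lyz2, which helped choose the cells, stood at 2396 CPM in VEGF/LysM members and 4006 in WT members. In the low class its levels were 4797 and 5029 CPM, in the middle class 1726 and 4513, and in the high class 1917 and 3390.

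**Figure D5:**
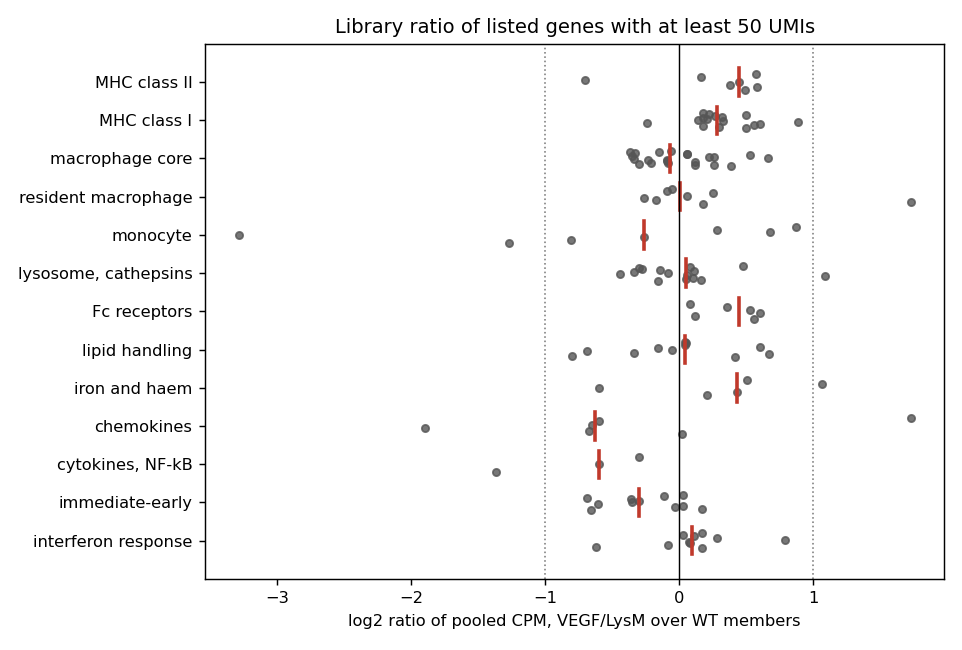
Each grey point is 1 gene with at least 50 UMIs over members, from the lists named on the vertical axis, which leave out the erythroid list: log2 ratio of pooled CPM in VEGF/LysM over WT members (horizontal axis), by gene list; red bars are list medians and dotted lines mark 2-fold. The class II median is 0.45 and the chemokine median -0.62, and most genes lie inside 2-fold, while Fn1 lies at -3.29 and Pf4 at 1.73.

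Markers of other cell types were looked for in full. Of 9 neutrophil genes, S100a8, S100a9 and Ly6g had 0 UMIs in members of both libraries, and the list summed to 52.9 CPM in VEGF/LysM and 44.8 in WT, where Csf3r gave 21 of 22 UMIs and 8 of 9. Igkc, Cd79a and Cd79b had 0 UMIs, and Ighm had a UMI in 20 and 15 members. The 12 T-cell and natural killer genes had 49 UMIs in 10 VEGF/LysM members and 3 in 3 WT members. Several rested on single VEGF/LysM cells. All 8 Trbc2 UMIs and all 5 Il7r UMIs of the low class came from 1 cell per gene, as did all 6 Il7r UMIs of the high class. Lck was more spread, with 7 UMIs in the high class and at most 2 in 1 cell. The 8 mural and fibroblast genes had 2 and 0 UMIs, the 5 chromaffin genes 3 and 1, and the 5 mast cell genes 5 and 5. The 5 proliferation genes had 45 UMIs in 9 VEGF/LysM members and 20 in 3 WT members. Xcr1, Cd209a and Ccr7 of dendritic cells had 0 UMIs, and Flt3 had 8 UMIs in 3 VEGF/LysM members and 1 in WT. Others of that list were detected. Irf8 had 240 and 239 CPM in members of VEGF/LysM and WT, against 60.0 and 68.5 in other cells. In the high class Clec9a had 5 and 1 UMIs, Itgax 10 and 2, and Naaa 9 and 2. Zbtb46 and Fscn1, also listed for dendritic cells, were at 13.4 CPM each in the low class of VEGF/LysM, and at 29.6 and 0 CPM in that of WT, but at 329 and 222 CPM in other kept cells of VEGF/LysM and 388 and 271 CPM in those of WT. The 12 adrenocortical genes summed to 274 CPM in VEGF/LysM members and 398 in WT members, against 733 and 534 CPM in other cells. Their part in the results above was not tested.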

How the data were processed

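Values were deposited by the authors as raw UMI counts per gene and barcode. Cell Ranger 7.0.1, Seurat and the mm10 genome are named in the submitters' processing notes, and the matrix header gives Cell Ranger 7.0.0. Settings of cell calling and of intron counting are not known here. Barcodes numbered 3807 in VEGF/LysM, with 10323972 UMIs in all, and 6276 in WT, with 8606348. A barcode was kept from 500 UMIs and 300 genes up and with no more than 15% of UMIs from mitochondrial genes, so that 14 and 142 dropped out. No doublets were removed, and leaving out the highest Scrublet scores (scanpy 1.11.5, 0.8% per 1000 barcodes, 116 and 315 barcodes) was an alternative.

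Counts were summed over cells per library and scaled to CPM (per 1000000 UMIs of those cells), with Python 3.11.15 and scipy 1.17.1. CPM carry exact Poisson 95% intervals, shares exact binomial (Clopper-Pearson) ones and ratios exact conditional binomial ones. The ratio code was tested on simulated data. Near-identical genes, such as those of the H2-Q group and the haemoglobin chains, may share counts and are uncertain one by one. With 1 library per genotype no test of genotype was possible, and differences describe the libraries. The members and the gene lists were chosen with earlier results of these data known. From the library comparison the 8 highest and 8 lowest ratios whose interval lay beyond 1.25-fold were named, without mitochondrial, ribosomal, Gm and Rik genes. From the class split 10 genes and from the comparison with other cells 12 genes with the highest smaller ratio of both libraries were named, none of them a rule gene. Of each list the most abundant genes and those past 2-fold were named.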

Additional observations from a re-analysis of the deposited data

Results flagged for a closer look

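The class difference of Chil3 ran in opposite directions in the libraries. Its log2 ratio of the low over the high class was -2.46 in VEGF/LysM and 4.15 in WT. It had 45 UMIs in 5 VEGF/LysM members and 26 in 8 WT members, and 77.8% of the VEGF/LysM UMIs came from 1 cell. In VEGF/LysM the low class had 26.9 CPM and the high class 148 CPM, or 15.7 CPM without the cell that held 89.7% of the high-class UMIs. The difference between the libraries was not tested.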

How the results depend on the processing

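No paired analysis was possible because each genotype had 1 library. The C1q division, the high class alone, the rule without Lyz2 and leaving out top cells were chosen after seeing the data. The share of members was higher in VEGF/LysM under every rule and filter tried. It was 1.253% in WT under the stricter cell filter, 1.292% in VEGF/LysM and 0.6195% in WT with no B-cell gene allowed, and 0.7646% and 0.4076% with cells thinned first. Genes at least 2-fold lower (25) numbered 103 by the mean of cells and 68 with an equal mix of classes, beside 75 and 66 higher ones. Higher and lower genes numbered 7 and 7 in the low class, 24 and 12 in members without C1q and 4 and 1 in thinned members. They numbered 259 and 197 from 20 UMIs up and 3639 and 2934 from 1 UMI up. The UMI minimum was applied to the counts of each subset, so fewer genes were tested there than in the main setting. More were tested with the lower minimums. The numbers tested are not given here, so these counts do not compare how common differences were. The class II log2 ratio between libraries (0.43) was -0.13 in the high class alone and above 0 in the other settings, at 0.33 without the highest Scrublet scores, 0.26 by the mean of cells, 0.66 with an equal mix, 0.67 in the low class, 0.27 with C1q and 1.62 without it, or 0.97 there without the top cell of each library. The macrophage ratio (-0.07) changed sign between settings and was 0.11 with an equal mix, 0.23 in the low class, -0.27 in the high class, -0.29 in thinned members and -0.31 without C1q. Low over high, class II in WT (1.76) was 1.52 without the highest Scrublet scores, and macrophage genes in VEGF/LysM (1.79) were 2.04 in thinned members. With classes cut at 2 UMIs, class II in VEGF/LysM was 2.09, and macrophage genes were 1.52 in VEGF/LysM and 0.98 in WT. Of single genes, Plac8 (-0.81) turned to 0.93 in the low class (95.2% of its VEGF/LysM UMIs there from 1 cell), 0.36 in thinned members and 0.39 with C1q, and H2-DMa (-0.70) to 0.84 in thinned members. In members without C1q the ratios turned to -0.57 for Hbb-bs and for Blvrb, -0.89 for Apoe, -0.93 for Fth1 and -0.13 for B2m. Without the top cell they turned to -0.29 for Hba-a1 and -0.44 for Hbb-bs. The causes were not tested. Depth limits the low class most, with medians of 3301 UMIs in 19 cells and 2577 in 13.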
